A study of Homo sapiens with 8 samples.

Results

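The genes RUNX2, SOX5, VDR, COL1A1, COL12A1, PRG4, MMP14 and IGFBP5, 8 genes of bone and cartilage, were followed through maps of N6-methyladenosine (m6A) in human osteosarcoma cells. They were chosen by name, with the peak lists in view, from the 8758 genes that carried a peak in any list, so their counts describe these lists and are not a test. Their 134 listed peaks lay on 33 transcripts. The maps came from MeRIP-seq, in which RNA fragments bound by an antibody against m6A are sequenced and compared with input RNA that was not immunoprecipitated. The cells were U2OS and 143B, both established lines from human osteosarcoma. Total RNA was taken from each line after lentiviral infection with a control hairpin (shNC, here NC) or a hairpin against METTL14 (shMETTL14), so all groups carried a lentiviral hairpin. The series has 8 libraries, an immunoprecipitated and an input library for each of the 4 groups, with 1 library per group. Only the 4 immunoprecipitated libraries have a peak list. The input libraries were not analysed here except through the authors' values.

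The m6A mark is written on messenger RNA by a complex of METTL3 and METTL14, and it is typically found near stop codons and in 3' untranslated regions (UTRs). Proteins that bind the mark can change the splicing, translation and decay of the RNA. RUNX2 is the transcription factor that commits cells to the osteoblast lineage, and SOX5 acts with SOX6 and SOX9 in chondrocytes. The vitamin D receptor VDR controls genes of calcium and bone metabolism. COL1A1 encodes the main collagen chain of bone, COL12A1 a collagen that associates with collagen I fibrils, and PRG4 the joint lubricant lubricin. MMP14 is a membrane-bound protease that cleaves collagen and activates MMP2, and IGFBP5 binds insulin-like growth factors in bone matrix.

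Each list gives the authors' fold enrichment over input and p-value for a peak on 1 isoform, so a place in the genome is listed once for each isoform that holds it. Where peaks of 1 strand overlapped they were merged into a site, and sites are numbered from the 5' end of each gene. A peak of the NC list with no overlapping shMETTL14 peak in the same line is called lost, and one of the shMETTL14 list with no NC partner is called gained. These words describe the lists: a weaker mark, a less abundant transcript and a shallower library cannot be told apart here. The 4 lists held 32353 (U2OS NC), 29992 (U2OS shMETTL14), 33082 (143B NC) and 35195 (143B shMETTL14) peaks. No list gives read counts, so depth is unknown. Peaks on METTL14 numbered 5 in the U2OS NC list and 2 in the U2OS shMETTL14 list, then 1 and 4 in the 143B lists, and they give no measure of its knockdown. Of 9 osteoblast markers, 3 carried a peak in the U2OS NC, U2OS shMETTL14 and 143B shMETTL14 lists and 2 in the 143B NC list. Those were RUNX2, COL1A1 and the matrix protein gene SPARC. SP7, ALPL, BGLAP, IBSP, SPP1 and COL1A2 had 0 peaks in all 4 lists, and the absence of a peak says nothing about a transcript's level.

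The 134 peaks joined to 25 sites, of which 3 were present in all 4 lists: RUNX2 site 3, COL12A1 site 1 and MMP14 site 4. Another 6 sites were in 3 lists, 5 in 2 lists and 11 in a single list. By gene and list order (U2OS NC, U2OS shMETTL14, 143B NC, 143B shMETTL14), 7, 7, 4 and 6 of the 8 genes carried a peak. The peaks numbered 45, 41, 16 and 32 in the same order. The 143B NC list thus held the fewest of these peaks although it was not the shortest list. In U2OS 16 of 45 NC peaks (35.6%) were lost, beside 26.9% of all U2OS NC peaks, and 9 of 41 shMETTL14 peaks (22.0%) were gained, beside 20.9% of all. In 143B 9 of 16 NC peaks (56.2%) were lost, beside 20.7% of all 143B NC peaks. A further 25 of 32 peaks of the 143B shMETTL14 list (78.1%) were gained, beside 27.3% of all. The genes were picked from these same lists, so nothing is read from the gap between the paired shares. Counted as sites joined within each list, 5 of 18 were lost (31.2% of all sites) and 3 of 17 gained (24.9% of all) in U2OS. COL12A1 site 2 counts as 2 of the 17, since its U2OS shMETTL14 peaks lay at 2 separate places. In 143B 4 of 7 sites were lost (24.6% of all) and 7 of 10 gained (32.0% of all). A few genes made up each count. SOX5 and RUNX2 held 8 and 5 of the 16 peaks lost in U2OS. COL12A1, VDR and PRG4 held 10, 9 and 5 of the 25 gained in 143B, and without COL12A1 that count was 15 of 19.

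**Figure D1:**
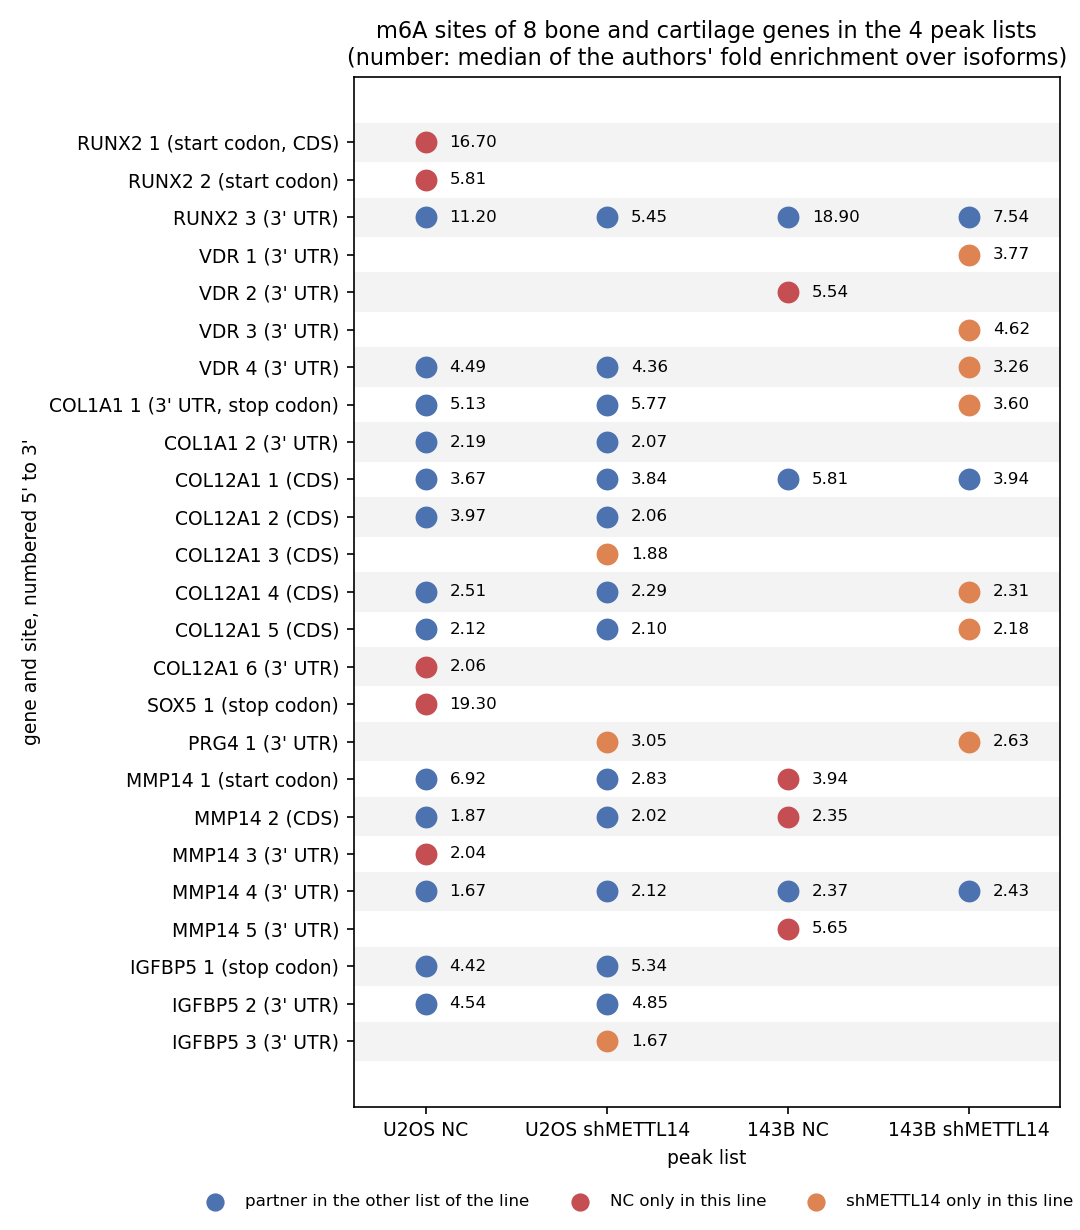
Each row is 1 of the 25 sites and each column 1 peak list. A point marks a site present in that list, and its colour whether the other list of the same line holds it. The number is the median fold enrichment over all listed peaks of the site, separate peaks of 1 isoform included. RUNX2 3, COL12A1 1 and MMP14 4 fill all columns, SOX5 has a point in the U2OS NC column alone, and PRG4 has points in the shMETTL14 columns alone.

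Among the transcription factors, RUNX2 went from 8 peaks at 3 sites in the U2OS NC list to 3 peaks at 1 site with shMETTL14. Site 1 (chr6:45296180-45296470, plus strand, build hg19) is a 91-nt spliced stretch near the start of the coding sequence. It was listed in U2OS NC alone, on 3 isoforms, with a fold enrichment of 16.7 and a p-value of 1.70e-04 on each. These peaks ranked within the top 2.53% of that list by fold enrichment but at 73.1% from the top by p-value. Site 2 (chr6:45390214-45390462) crosses the start codon of 2 other isoforms and was also in the U2OS NC list alone, at 3.92 and 7.70 with p-values of 1.51e-08 and 1.35e-07. Site 1 crosses the start codon of 1 of its 3 isoforms and lies within the coding sequence of the others. Sites 1 and 2 of RUNX2 were thus absent from the U2OS shMETTL14 list and from both 143B lists.

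RUNX2 site 3 (chr6:45515163-45515878) lies in the 3' UTR and was present in all 4 lists. In U2OS NC its fold enrichment was 10.2 to 11.2 on 3 isoforms, with a lowest p-value of 7.94e-22. With shMETTL14 the U2OS values were 5.45 to 5.56, with a lowest p-value of 5.01e-11. The 2 U2OS outlines shared 92.9% of their joined length. In 143B shMETTL14 it stood at 7.54 on all 3 isoforms, with a p-value of 2.45e-07, and the outlines of the 143B lists shared 62.8%. The 143B NC list was split by isoform: 1 isoform had a single peak of 511 nt at 36.5, while 2 others each had a peak of 360 or 361 nt at 19.6 or 18.9 and a separate 61-nt peak at 3.70. These 2 short peaks are the only RUNX2 peaks counted as lost in 143B, and no RUNX2 site was lost there. With a partner allowed within 100 bp, 0 of the 5 RUNX2 peaks of the 143B NC list were lost, beside 17.9% of all peaks of that list under the same rule. MMP16, a membrane-type metalloprotease gene, was the only one of the 95 genes with a listed peak in the lists of related genes and markers given below with the same site counts as RUNX2 (3, 1, 1 and 1).

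SOX5 was listed in U2OS NC alone. Its 1 site (chr12:23686895-23687220, minus strand) crosses the stop codon and carried 8 peaks, 1 for each isoform, with fold enrichments from 16.0 to 29.5 (median 19.3). The p-values ran from 2.14e-09 to 1.62e-06, below the list median of 3.55e-06. By fold enrichment these peaks ranked within the top 2.56% of that list, and by p-value between 32.5% and 47.5% from the top. No SOX5 peak was listed in U2OS shMETTL14 or in 143B. The site pattern of SOX5 (1, 0, 0 and 0) was shared by 4 of those 95 genes: BMPR1B, a BMP receptor, ENPP1, which makes pyrophosphate, KRT14, a keratin, and NKX3-2, a chondrocyte transcription factor.

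VDR carried 4 sites, all in the 3' UTR, and its lists differed by position as well as number. The most distal, site 4 (chr12:48235470-48235680, minus strand), was in both U2OS lists, at 4.49 (p-value 3.09e-04) in NC and 4.36 (0.001) with shMETTL14. It was the only VDR site of U2OS, and its outlines there shared 80.1% of their joined length. In 143B it appeared with shMETTL14 alone, at 3.20 and 3.32 with a p-value of 5.25e-04. Site 3 (chr12:48236529-48236740) was listed in 143B shMETTL14 alone, on 4 isoforms at 4.43 to 5.17 with p-values of 4.37e-04 to 8.51e-04.

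The other VDR sites of 143B lay next to each other. Site 2 (chr12:48238045-48238165) was in the NC list alone, on 3 isoforms at 4.70 to 5.54 with p-values of 4.68e-04 to 6.61e-04. Site 1 (chr12:48238225-48238298) was in the shMETTL14 list alone, on 3 isoforms at 3.51 to 4.21 with p-values of 0.00148 to 0.00347. A gap of 59 bp separated them, so the 3 VDR peaks lost in 143B and 3 of the 9 gained there were neighbours that just missed each other. With a partner allowed within 100 bp, no VDR peak was lost in 143B. Over all 8 genes, the count lost in 143B was then 4 of 16 (17.9% of all peaks) and that gained 22 of 32 (24.7% of all).

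**Figure D2:**
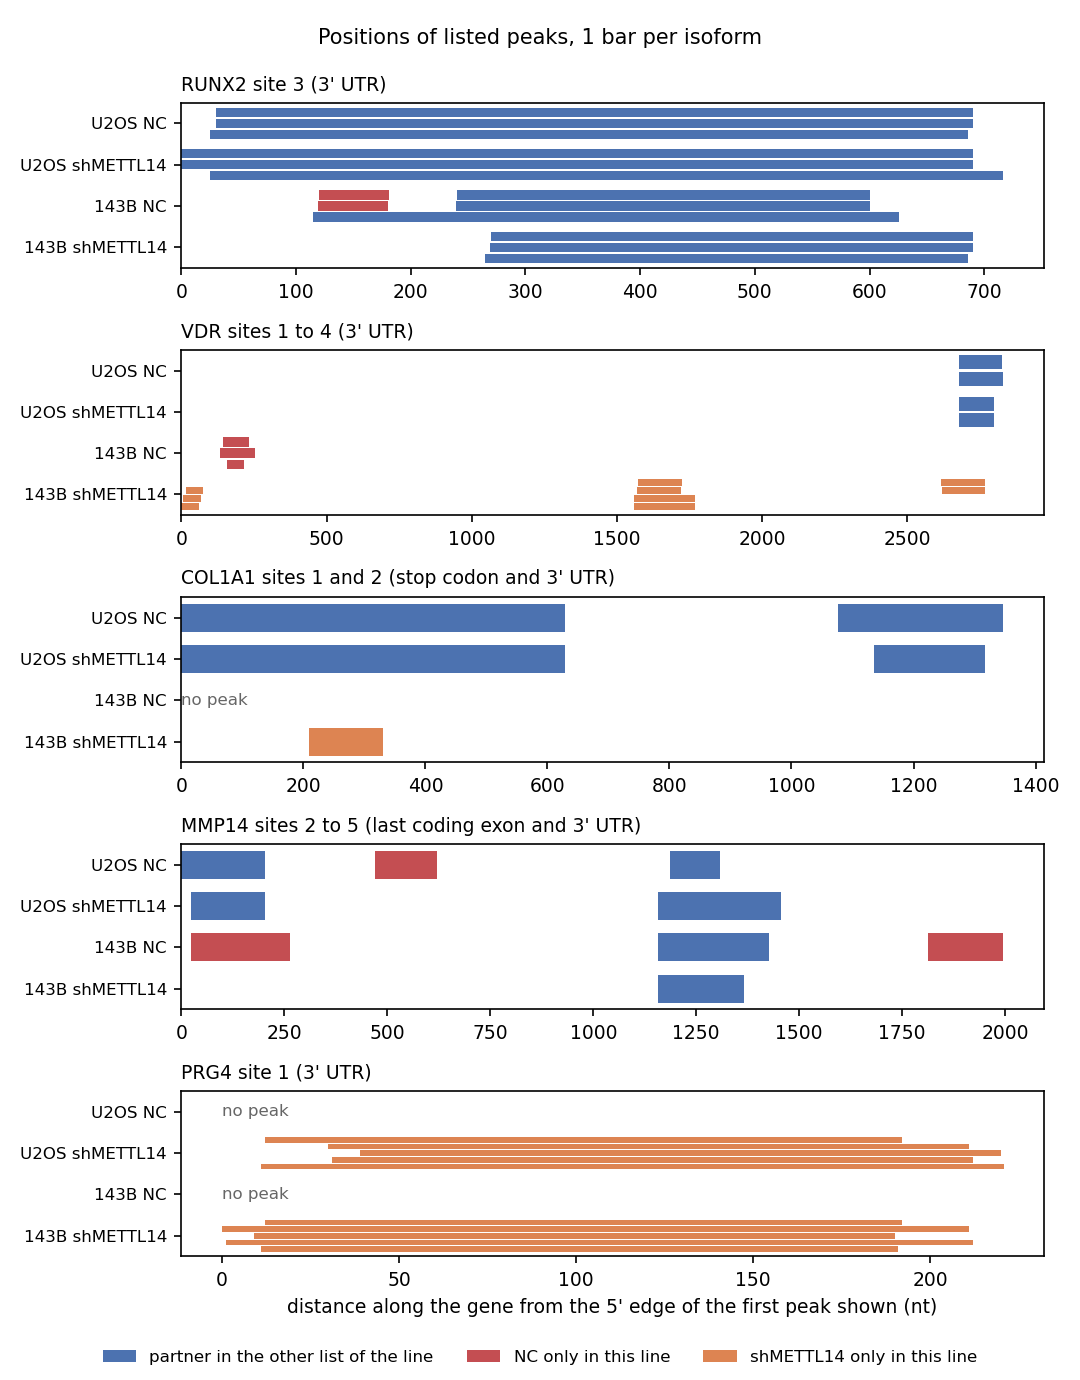
Horizontal bars are listed peaks, 1 per isoform, against distance in nucleotides from the 5' edge of the first peak shown; rows are the 4 lists and colour marks whether a peak overlaps one in the other list of its line. For the spliced MMP14 peak of U2OS NC only the last block is drawn. RUNX2 site 3 of 143B NC is broken into several bars, VDR sites 1 and 2 of 143B stand 59 bp apart, and the first COL1A1 bar of the U2OS lists has the same edges.

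Of the matrix genes, COL1A1 had 2 sites in both U2OS lists. Site 1 (chr17:48262324-48262952, minus strand) crosses the stop codon, and its 629-nt peak had identical edges in both U2OS lists. Its fold enrichment was 5.13 in NC, with a p-value listed as 0, and 5.77 with shMETTL14, with a p-value of 1.00e-161. It ranked at 0.213% and 0.420% from the top of its lists by p-value. COL1A1 site 2 (chr17:48261607-48261876, 3' UTR) stood at 2.19 (2.00e-13) in U2OS NC and 2.07 (7.94e-06) with shMETTL14. In 143B the NC list held no COL1A1 peak. The 143B shMETTL14 list held 1, a 121-nt peak inside site 1 (chr17:48262623-48262743) at 3.60 with a p-value of 5.25e-04, ranked at 85.2% from the top.

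COL12A1 had the most peaks of the 8 genes, 56 on 6 isoforms, and 39 of them crossed a splice junction. Its peaks numbered 18 and 22 in the U2OS lists and 3 and 13 in the 143B lists. Site 1 (chr6:75892852-75893247, minus strand, coding sequence) was in all 4 lists, with median fold enrichments of 3.67 and 3.84 in U2OS and 5.81 and 3.94 in 143B, NC first in each line. It was the only COL12A1 site of the 143B NC list. Sites 4 (chr6:75848568-75851828) and 5 (chr6:75800007-75806996), both coding, were in both U2OS lists and joined the 143B shMETTL14 list. At site 4 the fold enrichment was 2.49 to 2.57 in U2OS NC and 2.27 to 2.31 in U2OS shMETTL14. In 143B shMETTL14 it was 2.22 to 2.41, with p-values of 2.14e-04 to 4.57e-04. At site 5 the 143B shMETTL14 values were 2.18 to 2.33, with p-values of 7.41e-05 to 1.91e-04, beside 2.12 to 2.16 and 2.04 to 2.10 in U2OS. The 10 COL12A1 peaks gained in 143B were those at these sites.

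In U2OS, COL12A1 differed between the lists at sites 2, 3 and 6. The peak of site 2 (chr6:75875457-75887637), at 3.91 to 4.04 in NC, was listed with shMETTL14 as separate peaks at 2 places per isoform, at 1.70 to 2.61. The U2OS outlines of site 2 shared 51.1% of their joined length. Site 3 (chr6:75866144-75875297) was in the U2OS shMETTL14 list alone, at 1.88 to 1.91 with p-values of 4.27e-05 to 6.17e-05. Site 6 (chr6:75794460-75794522, 3' UTR) was in the U2OS NC list alone, at 2.03 and 2.09 with a p-value of 0.00209.

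PRG4 was listed in both shMETTL14 lists and in neither NC list. Its 1 site (chr1:186283056-186283276, plus strand, 3' UTR) carried 5 peaks in each, on the same number of isoforms. The fold enrichment was 2.93 to 3.12 in U2OS (p-values 1.74e-05 to 4.90e-05) and 2.60 to 2.66 in 143B (4.90e-06 to 8.51e-06). On the minus strand at the same place lies the end of TPR, which encodes a nuclear pore protein, and a TPR peak across its stop codon was listed in the same 2 lists and in no other. In U2OS shMETTL14 that TPR peak (chr1:186283091-186283783) stood at 2.39 with a p-value of 9.55e-05 and overlapped 32.4% to 37.8% of each PRG4 peak. In 143B shMETTL14 (chr1:186283061-186283783) it stood at 2.49 with a p-value of 2.88e-04 and overlapped 46.4% to 51.9%. Whether the libraries keep strand is not given in the sources used here, so reads of PRG4 and TPR may not be separable. TPR carried 7 peaks in each U2OS list and 5 and 6 in the 143B lists. PRG4 was the only one of the 8 genes whose peaks overlapped a listed peak of the other strand, which between 1.25% and 1.65% of all peaks of a list did. RUNX2 also overlaps a coding gene in the RefSeq annotation, SUPT3H, but no opposite peak was listed on it.

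MMP14 had peaks at 4 sites in U2OS NC, 3 in U2OS shMETTL14, 4 in 143B NC and 1 in 143B shMETTL14. Site 1 (chr14:23305796-23306094, plus strand) crosses the start codon of 2 isoforms. On these it was listed at 10.3 and 3.53 in U2OS NC, at 3.08 and 2.57 in U2OS shMETTL14, and at 4.13 and 3.74 in 143B NC. Site 2 (chr14:23314569-23315179, coding) stood at 1.87, 2.02 and 2.35 in the same 3 lists. Both were missing from the 143B shMETTL14 list, although their 143B NC p-values, 1.00e-11 and 1.70e-06 at site 1 and 3.02e-09 at site 2, were below that list's median of 7.08e-06. They are the only peaks of the 8 genes lost in 143B from the upper part of that list by p-value.

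The other MMP14 sites were in the 3' UTR. Site 4 (chr14:23316075-23316373) was in all 4 lists, at 1.67 and 2.12 in U2OS and 2.37 and 2.43 in 143B. Site 3 (chr14:23315388-23315537) was in U2OS NC alone, at 2.04 with a p-value of 8.71e-04. Site 5 (chr14:23316731-23316910) was in 143B NC alone, at 5.65 with a p-value of 1.17e-04. In both lines the MMP14 sites therefore numbered fewer with shMETTL14 than with NC, by 1 in U2OS and by 3 in 143B.

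IGFBP5 was listed in U2OS alone. Site 1 (chr2:217540921-217541578, minus strand) crosses the stop codon and spans 658 nt, with identical edges in both U2OS lists. It stood at 4.42 (p-value 1.00e-105) in NC and 5.34 (6.31e-84) with shMETTL14. Site 2 (chr2:217538770-217539905, 3' UTR) spans 1136 nt, again with identical edges, at 4.54 (6.31e-87) and 4.85 (1.58e-48). By p-value these peaks ranked between 1.04% and 3.78% from the top of their lists. Site 3, of 61 nt (chr2:217537933-217537993) was in the U2OS shMETTL14 list alone, at 1.67 with a p-value of 0.00155.

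The lost and gained peaks of the 8 genes sat at different places in their lists. All 9 peaks gained in U2OS and all 25 gained in 143B had p-values above the median of their list. Of all gained peaks, 91.5% in U2OS and 89.3% in 143B did, so the gained peaks of these genes were ranked as gained peaks in general were. Of the 9 peaks lost in 143B, 6 were above the median p-value, beside 90.5% of all lost peaks. Of the 16 lost in U2OS, 6 were, beside 90.2% of all lost peaks there. The 10 from the upper part of the U2OS NC list were the 8 SOX5 peaks and the 2 at RUNX2 site 2. The median fold enrichment of the 16 was 16.7, beside 3.53 for all peaks lost in U2OS, and it was set by SOX5 and RUNX2.

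**Figure D3:**
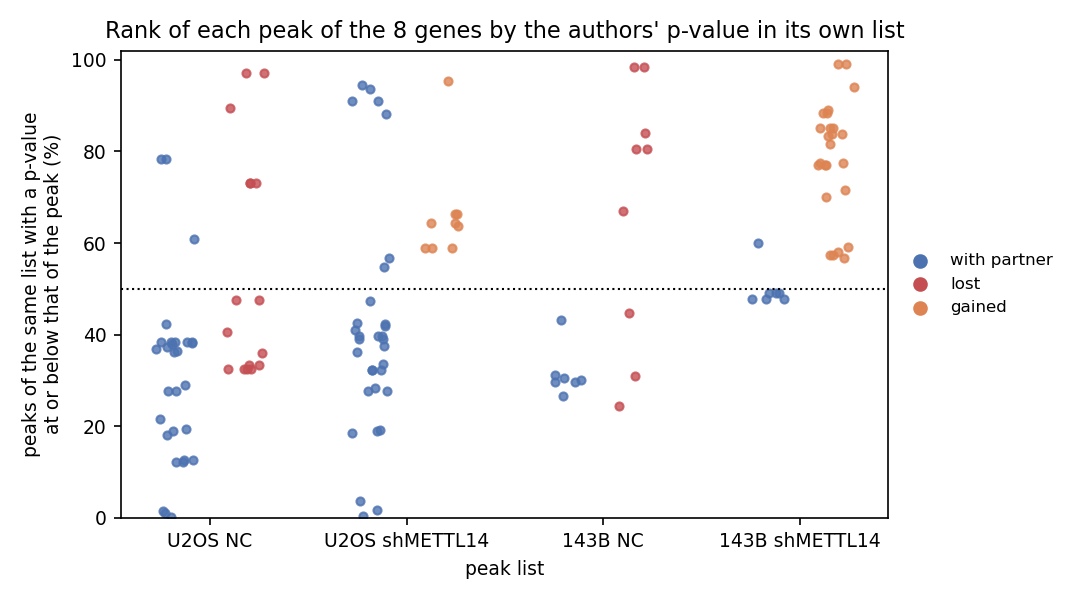
Each point is a peak of the 8 genes, placed by the share of peaks in its own list with a p-value as low or lower (lower on the axis means a smaller p-value); the dotted line is the list median and colour marks peaks with a partner, lost or gained. All gained peaks lie above the line, while 10 of the 16 lost in U2OS lie below it.

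Taking the highest peak of each isoform, fold enrichments at 1 site of a list differed between isoforms by a median of 1.06 to 1.07 times over all genes, and by at least 1.5 times at 9.62% to 11.3% of sites. MMP14 site 1 in U2OS NC differed 2.92-fold between its isoforms (1.60% of sites differed as much). RUNX2 site 2 there differed 1.96-fold (4.59%) and SOX5 1.84-fold (5.64%). RUNX2 site 3 in 143B NC differed 1.93-fold between isoforms (5.86%), from 18.9 to 36.5, and its separate 61-nt peaks at 3.70 lay on the 2 isoforms that also carried 18.9 and 19.6. The 36.5 of the longest isoform ranked within the top 0.0574% of its list by fold enrichment and its p-value of 1.02e-09 at 29.6%. On the 3 isoforms the 143B NC peaks that overlapped the shMETTL14 peak of RUNX2 site 3 stood at 36.5, 19.6 and 18.9, beside 7.54 on each with shMETTL14. COL12A1 site 2 in U2OS shMETTL14 differed 1.11-fold between isoforms, and its lower values, from 1.70, came from the other of its 2 places. In U2OS, RUNX2 site 3 stood at 10.2 to 11.2 in NC and 5.45 to 5.56 with shMETTL14. These ranges run over isoforms of 1 library and give no spread between replicates, so the difference was not tested.

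**Figure D4:**
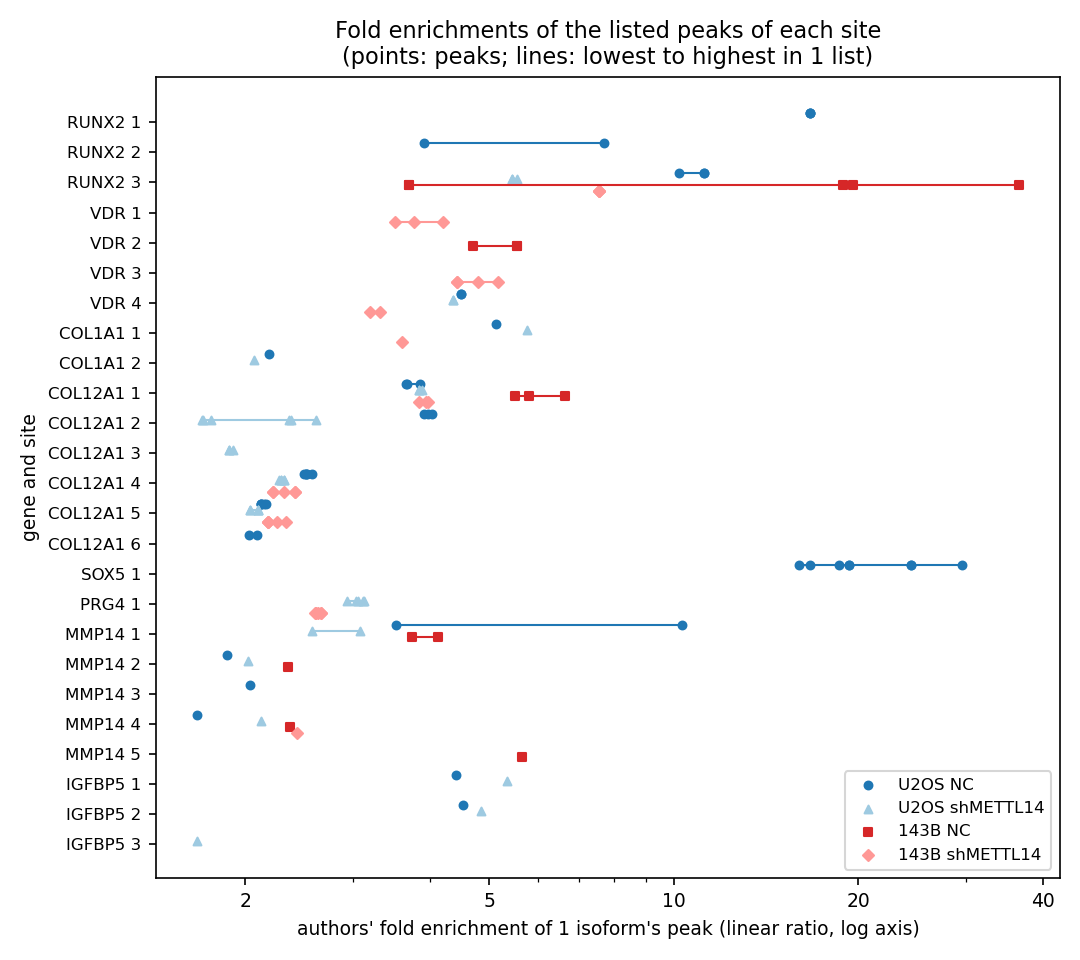
Points give the authors' fold enrichment of each isoform's peak on a log axis, and lines join the lowest and highest value of a site in 1 list, separate peaks of 1 isoform included; colour and shape mark the list. RUNX2 3 in 143B NC runs from its short peaks at 3.70 to 36.5 and MMP14 1 in U2OS NC from 3.53 to 10.3, while most COL12A1 values of a site lie close together.

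By position in the transcript, 16 of the 25 sites held a peak in the 3' UTR or across the stop codon, 6 were wholly coding (5 in COL12A1 and 1 in MMP14) and 3 included a start codon (2 in RUNX2 and 1 in MMP14). Counted within each list, 3' UTR sites of the 8 genes made up 7 of 18 (38.9%) in U2OS NC and 7 of 17 (41.2%) with shMETTL14. Beside these, 30.9% and 30.8% of all sites of those lists lay there. In 143B the 3' UTR sites of the 8 genes made up 4 of 7 (57.1%) and 7 of 10 (70.0%), beside 33.2% and 34.2%. The 13 numbered sites that the 8 genes kept in U2OS shared a median of 89.2% of their outline between NC and shMETTL14 (40.5% to 100%). Over all 8052 kept sites the median was 69.3%. Identical outlines were found at 3 of the 13, COL1A1 site 1 and IGFBP5 sites 1 and 2, beside 4.12% of all. The 3 sites kept in 143B shared 62.8% to 79.4%, with a median of 77.7%, beside 64.8% over all.

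Between the lines, 35 of the 45 U2OS NC peaks of these genes (77.8%) had no 143B NC partner, beside 30.2% of all U2OS NC peaks. In the other direction 4 of 16 143B NC peaks (25.0%) had no U2OS NC partner, beside 31.4% of all, and these were the VDR peaks of site 2 and MMP14 site 5. With shMETTL14, 16 of 41 U2OS peaks (39.0%) had no 143B partner, beside 22.0% of all. Of the 32 peaks of the 143B shMETTL14 list 7 (21.9%) had no U2OS partner, all of them VDR peaks, beside 34.6% of all. Counted as sites, 13 of 18 U2OS NC sites had no 143B NC partner (34.3% of all sites) and 2 of 7 143B NC sites no U2OS NC partner (36.9%). With shMETTL14 the same counts were 9 of 17 for U2OS (25.0%) and 2 of 10 for 143B (40.1%). The COL12A1, VDR, COL1A1 and PRG4 peaks that 143B gained with shMETTL14 thus lay, apart from those 7, where U2OS shMETTL14 also had a peak.

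Genes with related roles were counted from lists that leave out the 8 genes themselves. Beside the shares below, 26.9% of all peaks were lost and 20.9% gained in U2OS, and 20.7% and 27.3% in 143B. The counts hold 1 entry per isoform, so a few genes can make up much of a share. Of 55 other bone genes 35 carried a peak. They lost 42 of 142 peaks (29.6%) and gained 12 of 109 (11.0%) in U2OS, and lost 16 of 113 (14.2%) and gained 30 of 126 (23.8%) in 143B. COL11A1, a fibrillar collagen gene, had 17, 6, 0 and 0 peaks in list order. BMP4, a bone morphogenetic protein, had 6, 5, 0 and 9, and its receptor BMPR2 8, 10, 1 and 3. PLOD2, a collagen lysyl hydroxylase, had 4 peaks in each list with none lost or gained.

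Of 38 other cartilage genes 15 carried a peak. They lost 31 of 76 peaks (40.8%) and gained 0 of 45 in U2OS, and lost 26 of 76 (34.2%) and gained 26 of 74 (35.1%) in 143B. PTHLH, which encodes parathyroid hormone-related protein, had 9, 0, 3 and 0 peaks in list order, so it was listed in the NC lists alone, the reverse of PRG4. TRPS1, a chondrocyte transcription factor, had 22, 11, 16 and 22, and VCAN, the proteoglycan versican, 0, 0, 25 and 21. RUNX3 had 0, 0, 3 and 7, with all 10 of its peaks lost or gained, and RUNX1 13, 12, 8 and 6 with none.

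Among 28 other matrix proteases, receptors and inhibitors 13 carried a peak. They lost 5 of 24 (20.8%) and gained 8 of 28 (28.6%) in U2OS, and lost 16 of 30 (53.3%) and gained 2 of 15 (13.3%) in 143B. MMP14 was counted apart from these, and its own 143B peaks went from 5 to 1. TIMP2, an MMP inhibitor that also takes part in MMP2 activation by MMP14, had 4, 8, 5 and 1 peaks. PLAUR, the urokinase receptor, had 0, 3, 5 and 0, and ADAM10, a membrane sheddase, 7, 4, 4 and 1. ADAMTS1, a protease of proteoglycans, had 0, 1, 1 and 2, and FURIN, a proprotein convertase that processes MMP14, 2, 2, 1 and 1 with none lost or gained.

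In the insulin-like growth factor axis 14 of 19 genes carried a peak. They lost 17 of 35 (48.6%) and gained 23 of 40 (57.5%) in U2OS, and lost 8 of 54 (14.8%) and gained 14 of 58 (24.1%) in 143B. The growth factor gene IGF2 had 14, 10, 11 and 15 peaks and the receptor gene IGF1R 10, 8, 11 and 13. GRB10, an adaptor that binds the receptor, had 0, 11, 11 and 10, and PAPPA2, a protease that cleaves IGFBP5, 1, 6, 0 and 0. Of the 23 peaks gained in U2OS, GRB10 held 11, all at 1 site, and PAPPA2 held 6. Counted as sites, 6 of 16 in this list were gained in U2OS, beside 24.9% of all sites.

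Of 16 genes for partners and enzymes of the vitamin D pathway 9 carried a peak. They lost 22 of 114 (19.3%) and gained 8 of 119 (6.72%) in U2OS, and lost 30 of 108 (27.8%) and gained 28 of 112 (25.0%) in 143B. The coactivator genes NCOA1 and NCOA3 had 20, 36, 28 and 17 and 14, 6, 7 and 4 peaks. The corepressor gene NCOR1 had 17, 18, 20 and 24. PDIA3, a membrane-associated vitamin D binding protein, had 4 in each list with none lost or gained.

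**Figure D5:**
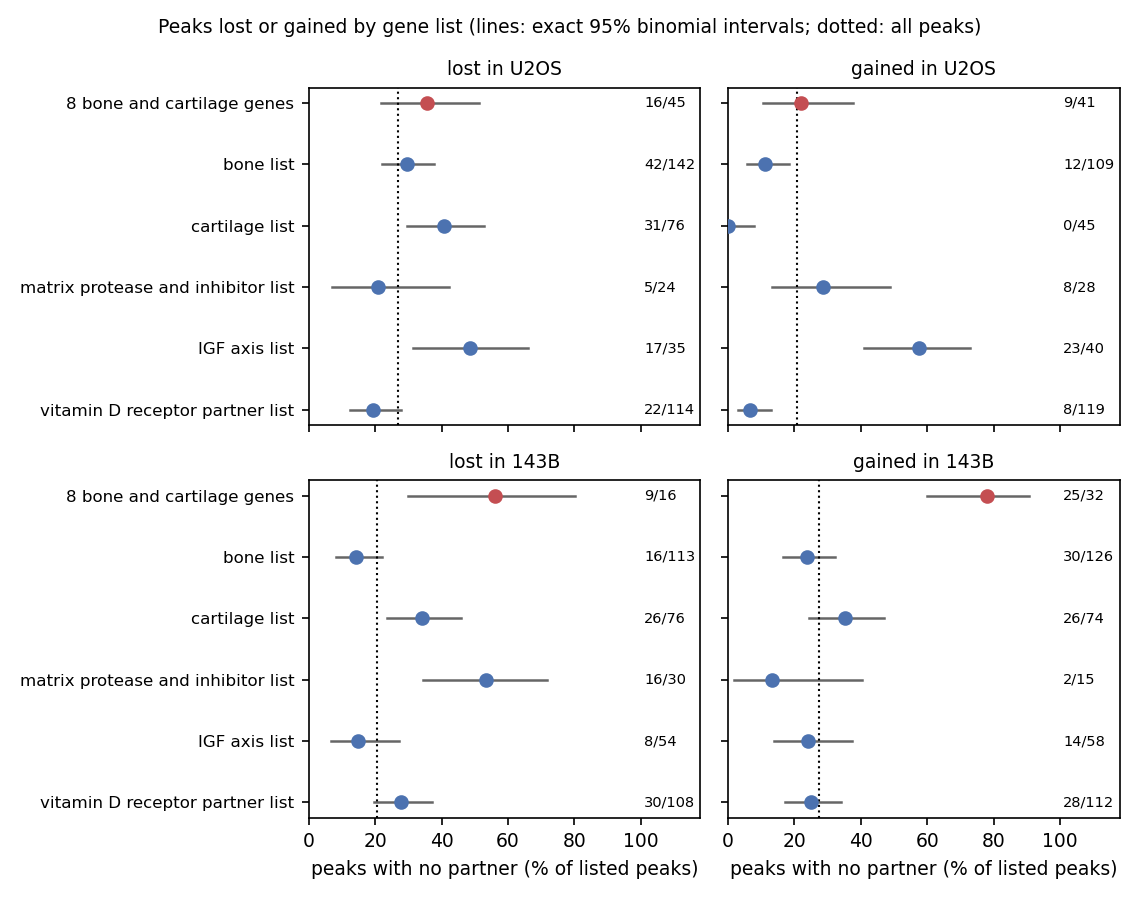
Points give the percentage of listed peaks with no partner for the 8 genes (red) and for 5 lists of related genes (blue), in 4 panels for peaks lost or gained in U2OS and 143B; lines are exact Clopper-Pearson 95% intervals, which cover counting error only and treat isoforms as independent, and dotted lines the share of all peaks. The 8 genes were chosen from these lists, and their points in 143B stand at 56.2% and 78.1%.

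Some markers of other cell types also carried a peak in at least 1 list. Of 9 osteoclast markers 3 did, as many as of the 9 osteoblast markers: NFATC1 (4, 3, 0 and 4), TNFRSF11A (0, 0, 0 and 3) and ITGB3 (0, 0, 2 and 0). Of 15 blood and immune markers CD68 alone did (3, 3, 6 and 6, none lost or gained), and of 12 epithelial markers 3 did, among them KRT8 (8, 10, 9 and 10) and KRT14 (1, 0, 0 and 0). Of 9 endothelial markers 2 did, ERG (8, 27, 17 and 18) and TIE1 (0, 0, 1 and 0). Each group is 1 library, so no difference above could be set against the spread of replicates.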

How the data were processed

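Reads were handled with HISAT2, Trimmomatic and FastQC 0.11.5 on human build hg19 (GRCh37), per the submitters' processing notes. How peaks were called, at what threshold and depth, is not given in the sources used here. Per the file headers, each of the 4 lists gives a peak's blocks, strand, transcript, transcript length, gene and region. The p-value and the fold enrichment, a linear ratio, are the authors' own deposited values and served only to rank, filter and describe peaks inside each list. A partner was a peak of the other list whose spliced blocks shared 1 bp or more with it on 1 strand. Sites are joined overlapping peaks, over all 4 lists where numbered and within 1 list where counted per list. Coordinates count from 1. Intervals are exact Clopper-Pearson at the 95% level. Gene overlaps come from RefSeq (GRCh38.p14), by name only.

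The 8 genes, the lists of related genes and the comparisons were chosen with earlier results of these data known. Beside the 8 genes, the text names up to 4 genes per list with the most peaks lost or gained and up to 1 with peaks in all 4 lists and none lost or gained; SPARC, TPR, SUPT3H and METTL14 were named outside this rule, and some genes that it selects are not reported here. Alternatives changed the overlap, the peaks used and the unit counted. Python 3.11.15, numpy 2.4.6, pandas 2.3.3, scipy 1.17.1 and matplotlib 3.10.9 were used, and the overlap was tested on simulated data. No sequences are shown, since no hg19 genome was used here.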

Additional observations from a re-analysis of the deposited data

Results flagged for a closer look

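For the genes and lists below the number of listed peaks changed in opposite directions with shMETTL14 in U2OS and in 143B, each with 1 library per group, and the difference was not tested. The values are changes in listed peaks. For the 8 bone and cartilage genes together the change was -4 in U2OS and 16 in 143B, a difference of 20. In U2OS SOX5 went from 8 peaks to 0 and RUNX2 from 8 to 3, while COL12A1 went from 18 to 22. In 143B COL12A1 went from 3 to 13 and VDR from 3 to 9, while MMP14 went from 5 to 1. For the other bone genes the changes were -33 and 13 (difference 46), and within that list BMP4 changed by -1 and 9 (difference 10). The list of other matrix proteases and inhibitors changed by 4 and -15 (difference -19), with TIMP2 at 4 and -4 and PLAUR at 3 and -5 (difference -8 each). The cartilage gene TRPS1 changed by -11 and 6 (difference 17). In the insulin-like growth factor axis IGF2 changed by -4 and 4 (difference 8), IGF1R by -2 and 2 (difference 4) and GRB10 by 11 and -1 (difference -12). Among the vitamin D receptor partners NCOA1 changed by 16 and -11 (difference -27). The osteoclast markers changed by -1 and 5 (difference 6), mostly through NFATC1 at -1 and 4 (difference 5).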

How the results depend on the processing

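The 4 counts for the 8 genes were recomputed under 12 alternatives each, and 31 of the 48 counts stayed within 1.5 times those given above; the other 17 follow, with the share of all peaks under the same setting in parentheses. Counted as sites they were 5 of 18 (31.2%) lost and 3 of 17 (24.9%) gained in U2OS, and 4 of 7 (24.6%) lost and 7 of 10 (32.0%) gained in 143B. With 1 transcript per gene they were 4 of 17 (31.0%), 3 of 17 (24.9%), 5 of 8 (24.4%) and 7 of 10 (31.9%) in the same order. Next, both lists of a line were limited to p-values at or below their medians before matching. Gained U2OS peaks were then 1 of 25 (14.2%), lost 143B peaks 4 of 10 (16.7%) and gained 143B peaks 0 of 6 (21.4%). A peak whose partners were all removed by the limit counts here as lost or gained. MMP14 site 4 was counted so, as gained in U2OS and lost in 143B, although the full lists hold its partner in each line. Limiting both lists to fold enrichment at or above their medians gave, for the same 3 counts, 0 of 11 (33.3%), 5 of 11 (34.2%) and 7 of 13 (38.2%). Requiring 50% of each peak gave 16 of 41 (37.0%) gained in U2OS, and partners within 100 bp gave 4 of 16 (17.9%) lost in 143B. Leaving out COL12A1, chosen after seeing the data, gave 15 of 19 (27.3%) gained in 143B, a share of 78.9% of the other genes' peaks.

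These settings also change how many peaks are counted, and as shares of the genes' peaks 7 of the 48 values moved by over 1.5 times. In U2OS the lost share was 60.7% (17 of 28, beside 37.9% of all) with both lists limited to the median fold enrichment or above. It was 23.5% with 1 transcript per gene. The 17 include 3 COL12A1 peaks of site 2 and the MMP14 site 1 peak at 10.3. These peaks were not lost in the full lists: their shMETTL14 partners stood below the median fold enrichment and were removed by the limit. The gained share in U2OS was 39.0% requiring 50% of each peak, 4.0% with the p-value limit and 0 with the fold enrichment limit. In 143B the lost share was 25.0% within 100 bp and the gained share 0 with the p-value limit. For single genes 216 counts stayed within that range and 48 moved. The 216 include counts that were 0 and stayed 0, some for genes with 0 peaks left under the setting. No paired analysis was possible because the counts compare 1 list with 1 list and come from no test, and no library could be left out in turn.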
